A study of Mus musculus with 6 samples.

Results

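Leukocyte and antigen presentation genes are 38 genes that mark white blood cells in a tissue sample, grouped here by role. They comprise 8 pan-leukocyte genes, 8 T and NK cell genes, 3 B cell genes, 13 myeloid genes and 6 genes of antigen presentation on class II molecules. The members were found by name: every non-control probe whose gene name was a listed symbol or its older synonym was taken, and the probe with the highest mean signal in the sample channel stood for the gene. All 38 were on the array, of 27670 genes in all, and all 38 passed the filter on dim probes, as did 24836 genes of the array. Mrc1 and Cd163 passed it through total mammary epithelial cells alone, being well above background on 2 of the 6 arrays.

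The data are 6 Agilent 2-colour arrays of mammary gland RNA from virgin mice of strain C57/B6, covering 3 cell populations in each of 2 genotypes with a single array apiece. P4 is the CD24+CD29hi sort, enriched for mammary stem cells. P5 is the CD24+CD29lo sort, enriched for luminal progenitors. MEC is total mammary epithelial cells. Each was taken from wild-type mice (WT) and from mice heterozygous for a knockout of ΔNp63 (het), the p63 isoforms that lack the N-terminal transactivation domain. Sample RNA carried Cy5, and a Universal Mouse Reference RNA made from 11 cell lines carried Cy3 on every array. The labels give neither an age nor the number of mice behind an array, and for the gates they refer to another publication. No group had a replicate, so the tests below rest on the spread left after an additive fit of population and genotype, which holds differences between the populations in the genotype effect as well as noise.

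The leukocyte common antigen CD45, encoded by Ptprc, sits on nearly all nucleated blood cells. Macrophages and dendritic cells take up proteins, cut them and show the peptides on class II molecules, whose alpha and beta chains are encoded by H2-Aa, H2-Ab1 and H2-Eb1. The invariant chain Cd74 escorts these chains through the cell, cathepsin S (Ctss) degrades it so that peptide can bind, and the transactivator Ciita switches the whole set on. In the mammary gland, macrophages lie along the ducts and in the stroma and take part in ductal growth, while lymphocytes are scattered through the epithelium and the fat pad.

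On each array, 74.3% to 89.8% of the spots stood well above background in the sample channel. All 6 basal epithelial marker genes were higher in P4 than in P5 and all 6 luminal ones lower, at adjusted p below 0.05 (limma), as the labels of the sorts have it. Trp63, the gene carrying the ΔNp63 knockout, gave log2 ratios to the reference of 4.41 in WT P4, 5.29 in het P4, 0.46 in WT P5, 0.89 in het P5, 2.78 in WT MEC and 2.65 in het MEC. The het value was below the WT value in MEC alone, and the files do not say whether the probe reads the deleted part, so the probe does not check the genotype labels. The 4 sorted samples shared slide 1 and both MEC samples shared slide 2, so slide and MEC cannot be told apart in any comparison with MEC. The het sample of each population sat further along its slide than the WT sample, and this position cannot be told apart from genotype.

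The members' signal was dim in the sorted cells and bright in MEC. Before any normalization, Cy5 signals summed over the 38 probes were 8980 (WT P4), 10553 (het P4), 10135 (WT P5) and 7842 (het P5), against 56733 in WT MEC and 28403 in het MEC. The members' median signal differed less than the sum, at 134 to 178 on the sorted arrays against 431 in WT MEC and 284 in het MEC. Over all non-control spots the median was also higher in MEC, at 113.2 to 158 on the sorted arrays against 188 in WT MEC and 173 in het MEC. Myeloid genes summed to 2297 to 2921 on the sorted arrays and 24295 and 10942 on the MEC arrays. Most of the sum on the MEC arrays, but not on the sorted arrays, was Lyz2, the other 12 having 1906 to 2347 on the sorted arrays against 5272 and 3858. Class II genes had 1816 to 4379 against 21552 and 10646. The T and NK cell genes spanned less, from 1245 to 1645 against 2308 and 2039. On the sorted arrays 25 to 28 members exceeded 2 times the 95th percentile of the array's negative control spots, and on each MEC array 37 did.

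Ptprc itself illustrates how near to background the sorted cells lay. Its Cy5 signal was 74.3 in WT P4, 66.5 in het P4, 70.7 in WT P5 and 63.6 in het P5, where the 95th percentile of the negative controls ran from 41.0 to 50.5. In WT MEC it was 382.7 and in het MEC 169.1. The reference channel moved the other way between slides: the Cy3 signal of the Ptprc probe was 9763 to 11056 on slide 1 but 3028 and 2929 on slide 2. Across the 38 members the median Cy3 signal was 810.9 to 916.8 on slide 1 and 342.0 and 273.9 on slide 2, and the part of this in the ratios between slides was not tested.

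**Figure D1:**
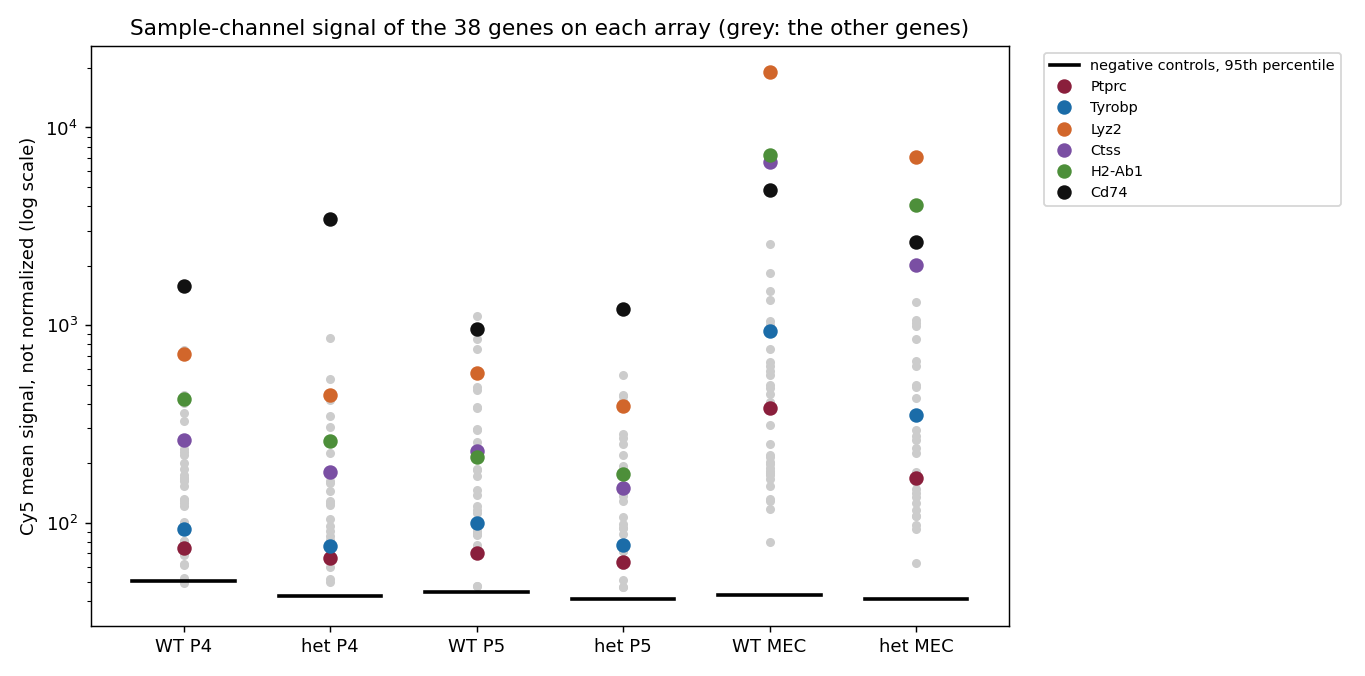
Unnormalized Cy5 mean signal (log axis) of the 38 genes on each of the 6 arrays; named genes are coloured, the others grey, and the black bar is the 95th percentile of the array's negative control spots. Ptprc lies close to the bar on the 4 sorted arrays (63.6 to 74.3) and well above it on both MEC arrays (382.7 and 169.1).

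Values from here on are log2 ratios of sample to reference, and differences are of such ratios. A ratio says how a gene compares between arrays; because the reference level differs from gene to gene, ratios of 2 genes do not rank their levels. In these bulk samples, fewer cells of a type and less RNA per cell cannot be told apart.

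**Figure D2:**
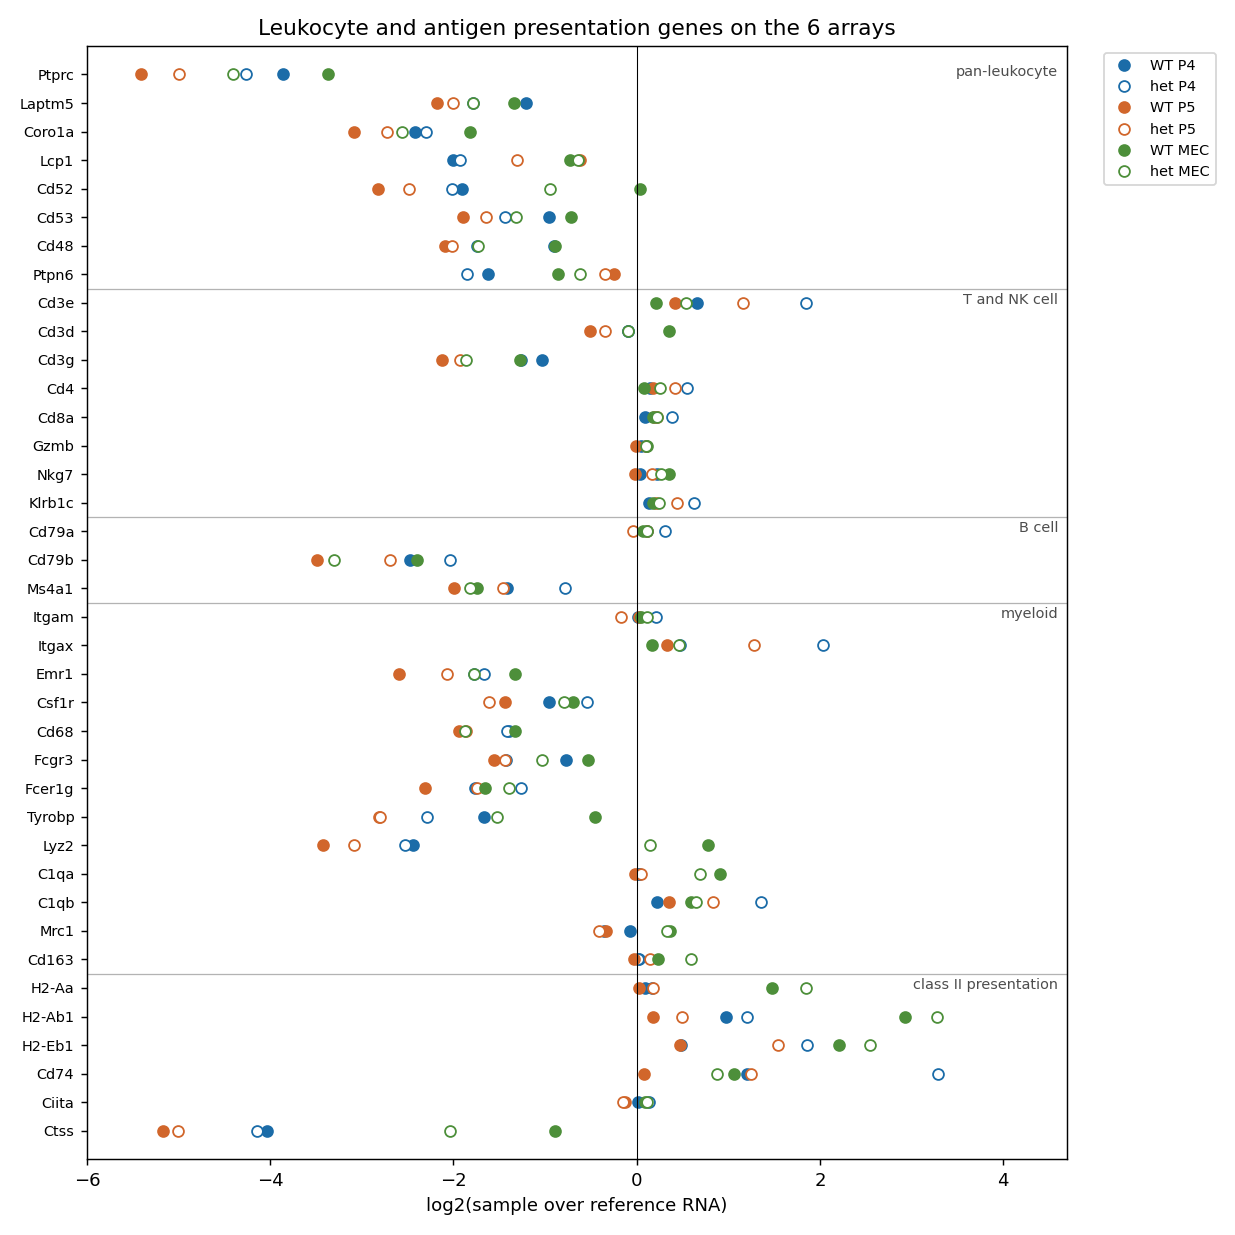
The log2 ratio of sample to reference RNA for each of the 38 genes, 1 point per array, with genes grouped by role; filled points are WT and open points het. Lyz2, Ctss, H2-Aa and H2-Ab1 have both MEC arrays to the right of all 4 sorted arrays, while Cd3e, Itgax and Cd74 have the het P4 array farthest to the right.

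By ratio, class II genes divided into those that set the sorted cells apart from MEC and those that did not. The chains H2-Aa and H2-Ab1 and the protease Ctss fell in both P4 and P5 relative to MEC. H2-Eb1 was lower without passing the test, and the ratios of Cd74 and of the dim Ciita did not follow. H2-Aa, the alpha chain, had ratios of 0.09 in WT P4, 0.17 in het P4, 0.03 in WT P5 and 0.18 in het P5, against 1.48 in WT MEC and 1.85 in het MEC. H2-Ab1, its beta chain partner, had 0.98, 1.21, 0.18 and 0.49 in the same 4 sorted samples, against 2.93 and 3.27 in MEC. Neither gene's sorted values overlapped the MEC values, and the genotypes lay close together within each population. The H2-Aa probe was dim on the sorted arrays, with raw signals of 72.2 to 101.3 in Cy5 and 96 to 141.6 in Cy3. Its sorted ratios therefore had little room to move.

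The H2-Aa ratio was 2.90-fold higher in MEC than in P4 (difference -1.53, SE 0.13, adjusted p = 0.023, limma) and 2.95-fold higher than in P5 (-1.56, SE 0.13, adjusted p = 0.019). For H2-Ab1 the differences were -2.01 in P4 (SE 0.11, adjusted p = 0.020) and -2.77 in P5 (SE 0.11, adjusted p = 0.015), or 4.03-fold and 6.80-fold. Every other probe of these genes was also lower in the sorted cells: the second H2-Aa probe by -1.58 and -1.47, and the 3 others of H2-Ab1 by -0.72 to -2.41 in P4 and by -0.67 to -2.59 in P5. Ctss, the protease that clears the invariant chain, stood at -4.03, -4.14, -5.17 and -5.01 in WT P4, het P4, WT P5 and het P5, and at -0.89 and -2.04 in WT and het MEC. It was 6.16-fold higher in MEC than in P4 (-2.62, SE 0.34, adjusted p = 0.033) and 12.3-fold higher than in P5 (-3.63, SE 0.34, adjusted p = 0.021).

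H2-Eb1, the beta chain of the other class II molecule, was split by genotype in the sorted cells. Its ratios were 0.48 and 0.47 in WT P4 and WT P5, 1.86 and 1.54 in het P4 and het P5, and 2.21 and 2.54 in WT and het MEC. The differences from MEC, -1.21 for P4 (SE 0.27, adjusted p = 0.079) and -1.37 for P5 (SE 0.27, adjusted p = 0.078), did not pass the test. The Cd74 ratio was lowest in WT P5 (0.08), about level in WT P4 (1.20), het P5 (1.25), WT MEC (1.07) and het MEC (0.88), and highest in het P4 (3.29). It differed from MEC by 1.28 in P4 (SE 0.55, adjusted p = 0.24) and by -0.31 in P5 (SE 0.55, adjusted p = 0.80). Without WT MEC these became 2.18, which passed the test (adjusted p = 0.014), and 0.60, and without het MEC 0.37 and -1.22. Raw Cy5 signals of Cd74 were 1573 (WT P4), 3426 (het P4), 961 (WT P5) and 1205 (het P5), against 4847 (WT MEC) and 2642 (het MEC). Its Cy3 signals were 2086.5 to 2246 on slide 1 and 1163 and 1028 on slide 2, and their part in the ratios was not tested. With median centring the Cd74 differences were 0.02 in P4 and -1.51 in P5 (adjusted p = 0.97 and 0.031, limma). Ciita stayed between -0.15 and 0.13 on all 6 arrays, and its differences from MEC were -0.03 in P4 and -0.24 in P5 (adjusted p = 0.92 and 0.31, limma). Its probe was dim in both channels, with Cy3 signals of 98.6 to 177.1, so the ratio had little room to move. Its raw Cy5 signals were 71.6 to 97.2 on the sorted arrays against 182 in WT MEC and 168.7 in het MEC.

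Promoter sequence was available for 27 of the 38 genes in RefSeq's GRCm38.p6 table, among them H2-Aa, H2-Eb1 and Ctss of the class II genes. Class II promoters are known for a Y box, whose core reads ATTGG, or CCAAT on the other strand, and the 120 bases before the start of H2-Aa and H2-Eb1 are shown because these 2 chains had their highest ratios in MEC. Both lie on chromosome 17, H2-Aa at chr17:34287824-34287943 on the minus strand and H2-Eb1 at chr17:34305747-34305866 on the plus strand, and capitals mark the Y box core in either orientation.
H2-Aa: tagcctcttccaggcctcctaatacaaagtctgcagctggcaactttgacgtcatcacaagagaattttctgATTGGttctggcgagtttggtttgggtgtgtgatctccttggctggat
H2-Eb1: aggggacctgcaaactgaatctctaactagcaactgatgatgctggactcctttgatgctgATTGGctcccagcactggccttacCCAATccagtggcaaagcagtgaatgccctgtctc
The core begins 48 bases before the start in H2-Aa and 59 bases before it in H2-Eb1, which holds a CCAAT 35 bases before the start as well. Over the 250 bases before the start, ATTGG or CCAAT occurred in 33.8% of all 32851 promoters of the table, so a match by itself is common. The core of the sites bound by PU.1, a regulator of myeloid genes, reads GAGGAA or TTCCTC, can overlap the Y box core by at most 1 base, and occurred in 23.3% of all promoters. Among the members it was found in 15 of 31 promoters (48.4%), of myeloid genes such as C1qb, Cd68 and Itgam (6 of 10) and of lymphocyte genes such as Cd3d, Cd3e, Cd79a and Cd8a alike, and the Y box core in 9 of 31 (29.0%).

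Seen over all members, a few genes were strongly lower in P4 than in MEC. In this comparison 6 of 38 members were lower in P4 and 0 higher at adjusted p below 0.05 (limma), where 7.01% of all genes were called, 4.22% as lower and 2.8% as higher. Beside H2-Aa, H2-Ab1 and Ctss, the 6 were the macrophage lysozyme Lyz2, the complement component C1qa and the phosphatase Ptpn6. The median difference was -0.03 over the 36 members measured in sorted cells, against 0.04 for all genes, with 21 of 36 negative, and -0.63 against -0.23 with median centring in place of loess. With outlier local backgrounds replaced, 10 of 38 were called, 9 lower (among them Mrc1, dim in the sorted cells) and 1 higher, where 18.1% of all genes were, 8.52% as lower and 9.54% as higher. If a sorted array, whichever of the 4, was dropped, 0 members and 0% of all genes were called, while the difference for Lyz2 stayed between -2.92 and -2.98 and that for H2-Ab1 between -1.96 and -2.06. Without WT MEC 12 members were called, 7 lower and 5 higher, with 16.7% of all genes and a median of 0.10 over the 36. Without het MEC 6 were, all lower, with 5.08% of all genes.

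P5 differed from MEC in the same direction. Of the 38, 6 were lower in P5 and 0 higher, where 4.06% of all genes were called, 3.11% as lower and 0.954% as higher. The 6 were H2-Aa, H2-Ab1, Ctss, Lyz2, the signalling adaptor Tyrobp and the surface glycoprotein Cd52, and 4 members were called in both comparisons with MEC, which share the MEC arrays. The median difference over the same 36 was -0.48 against 0.02 for all genes, with 29 of 36 negative, and -1.17 against -0.35 with median centring. The same 6 were called with outlier local backgrounds replaced, where 6.37% of all genes were, 4.28% as lower and 2.09% as higher. Dropping a sorted array, whichever of the 4, gave 0 members and 0% of all genes, with Lyz2 between -3.37 and -4.07 and H2-Ab1 between -2.75 and -2.78. Dropping WT MEC gave 6 members and 6.35% of all genes, and dropping het MEC 11 and 8.31%.

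Lyz2, an abundant secreted enzyme of macrophages and neutrophils, had the largest difference of any member. Its ratios were -2.45 in WT P4, -2.52 in het P4, -3.43 in WT P5 and -3.08 in het P5, against 0.77 in WT MEC and 0.15 in het MEC. That is 7.71-fold higher in MEC than in P4 (-2.95, SE 0.25, adjusted p = 0.023, limma) and 13.1-fold higher than in P5 (-3.72, SE 0.25, adjusted p = 0.016). Raw Cy5 signals for Lyz2 were 391 to 718 on the sorted arrays and 19024 and 7085 on the MEC arrays, so all 4 sorted samples lay below both MEC samples on either scale.

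Tyrobp, the ITAM-bearing partner of many myeloid receptors, stood at -1.67 in WT P4, -2.29 in het P4, -2.82 in WT P5, -2.80 in het P5, -0.45 in WT MEC and -1.53 in het MEC. All 4 sorted values lay below both MEC values, narrowly so for WT P4 and het MEC. It fell by 1.82 in P5 relative to MEC (SE 0.28, adjusted p = 0.048, limma), while in P4 the difference was -0.99 (SE 0.28, adjusted p = 0.12). The P4 difference passed as well with outlier local backgrounds replaced (-1.55, adjusted p = 0.040), and Tyrobp was called there in 6 of 9 alternatives that kept the 6 arrays. C1qa, part of the first complement component, was flat in the sorted cells, from -0.02 to 0.05, and read 0.91 in WT MEC and 0.69 in het MEC. It was 0.78 lower in P4 (SE 0.13, adjusted p = 0.045), a call lost with outlier local backgrounds replaced (adjusted p = 0.054), and -0.79 in P5 (adjusted p = 0.054) did not pass.

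The ratios of other macrophage genes did not separate the sorted cells from MEC in the same way. Emr1, which encodes the macrophage antigen F4/80, had ratios of -1.78 (WT P4), -1.67 (het P4), -2.60 (WT P5), -2.07 (het P5), -1.33 (WT MEC) and -1.78 (het MEC). Csf1r, the receptor of macrophage colony-stimulating factor, had -0.96, -0.55, -1.44, -1.61, -0.69 and -0.80 in the same order. For both genes P4 overlapped MEC, and the P5 differences of -0.78 and -0.78 had adjusted p = 0.18 and 0.10 (limma). Fcer1g, the gamma chain of Fc receptors, read -1.77, -1.26, -2.31, -1.74, -1.66 and -1.39. Its difference from MEC was 0.01 in P4 and -0.50 in P5 (adjusted p = 0.98 and 0.12, limma). Raw Cy5 signals of these genes were lower on every sorted array than on either MEC array. Emr1 had 185 to 223 on the sorted arrays against 586 (WT MEC) and 357 (het MEC), and Csf1r 130 to 236 against 403 and 359. Fcer1g had 389 to 469 against 1053 and 1062, and the part of the reference channel in this was not tested.

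Mrc1, the macrophage mannose receptor, and Cd163, the haemoglobin scavenger receptor, were not well above background on any sorted array but were on both MEC arrays. The folds given for them set the mean MEC level in the Cy5 channel over the sorted arrays' own mean reading. That reading was not well above background, and the folds are no bound from a detection limit. By these readings Mrc1 was 1.67-fold higher in MEC than in P4 and 1.71-fold higher than in P5. The folds for Cd163 were 1.55 and 1.54. Having passed the filter through MEC alone, the 2 genes have no test against it here and are left out of the directions and medians over populations, which cover the other 36 members. Of the remaining myeloid members, Itgax had differences of 0.94 in P4 and 0.49 in P5 on the probe used, neither past the test, and -0.48 and -0.90 on its other probe, and Cd68, Fcgr3, Itgam and C1qb differed from MEC by -0.32 to 0.20 in P4 and by -0.72 to -0.02 in P5, none past the test.

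Cd52 and Ptpn6 were the pan-leukocyte genes that passed the test against MEC. Cd52 had ratios of -1.90 in WT P4, -2.02 in het P4, -2.82 in WT P5, -2.48 in het P5, 0.04 in WT MEC and -0.95 in het MEC. It was 4.58-fold higher in MEC than in P5 (-2.20, SE 0.34, adjusted p = 0.048, limma), and its P4 difference (SE 0.34) had an adjusted p of 0.077, or 0.038 with outlier local backgrounds replaced (-1.83). Ptpn6, the phosphatase SHP-1 that damps signalling in blood cells, had -1.62 and -1.85 in WT and het P4, -0.25 and -0.34 in P5, and -0.85 and -0.62 in MEC. P4 was lowest, P5 highest and MEC between them, and P4 lay below MEC (means of -1.73 and -0.74, SE of the difference 0.15, adjusted p = 0.040). This rests on 1 of 3 probes, since the other 2 gave 0.62 and 0.07 for the same difference.

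Ptprc ratios were -3.86 in WT P4, -4.27 in het P4, -5.41 in WT P5, -4.99 in het P5, -3.37 in WT MEC and -4.41 in het MEC. P4 lay within the MEC range and P5 below it. The differences from MEC were -0.17 for P4 (SE 0.36, adjusted p = 0.82, limma) and -1.31 for P5 (SE 0.36, adjusted p = 0.13). With outlier local backgrounds replaced, P4 read -5.04 and -4.47 and lay below both MEC values of -3.68 and -4.42, a difference of -0.70 (adjusted p = 0.26). Ptprc was called lower in P4 with the scanner's log ratio (-2.10, adjusted p = 0.036), with the series table and with Cy5 alone (-0.91, adjusted p = 0.048), and the difference was 0.35 without WT MEC. Lcp1, the actin-bundling protein L-plastin, read -2.01 and -1.93 in WT and het P4, -0.62 and -1.31 in P5, and -0.73 and -0.64 in MEC, so that its P4 arrays lay below all others (-1.29 against MEC, SE 0.24, adjusted p = 0.052, or -1.52 and 0.027 with outlier local backgrounds replaced). Laptm5, Coro1a, Cd53 and Cd48 differed from MEC by -0.18 to 0.06 in P4 and by -0.75 to -0.53 in P5, none past the test.

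Lymphocyte genes gave no called difference between the sorted cells and MEC, 0 of 8 T and NK cell genes and 0 of 3 B cell genes. Of all genes, 7.01% were called in P4 against MEC and 4.06% in P5 against MEC, so 0 among so few genes says little about lymphocyte genes. At an unadjusted p below 0.05 (limma), 1 T and NK cell gene passed in each comparison with MEC, and 1 B cell gene in P4 against MEC and 0 in P5 against MEC, where 6518 and 5576 of the 24836 genes did. Cd3e, a chain of the T cell receptor complex, had ratios of 0.65 in WT P4, 1.85 in het P4, 0.42 in WT P5, 1.16 in het P5, 0.21 in WT MEC and 0.54 in het MEC. Both P4 ratios lay above both MEC ratios (difference 0.87, SE 0.23, adjusted p = 0.10), while P5 overlapped MEC. The gene's second probe gave 0.02, median centring -0.18, and the raw Cy5 signal of the probe used ran the other way, at 557.0 to 865.5 in the sorted cells against 999.9 and 1025 in MEC. Cd3g and Cd3d, other chains of that complex, differed by 0.41 and -0.22 in P4 and by -0.46 and -0.55 in P5. Cd4, Cd8a, Gzmb, Nkg7 and Klrb1c, marking helper and cytotoxic T cells and NK cells, differed by -0.24 to 0.18 in these comparisons. The probes of Cd8a, Gzmb and Nkg7 were dim, with raw signals of at most 198.9 in Cy5 and 147.6 in Cy3. Their ratios therefore had little room to move.

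Of the B cell genes, Cd79a and Cd79b encode the signalling chains of the B cell receptor. Cd79a stayed between -0.04 and 0.31 on all 6 arrays. Cd79b read -2.47 in WT P4, -2.04 in het P4, -3.48 in WT P5, -2.69 in het P5, -2.40 in WT MEC and -3.31 in het MEC, so that every population overlapped MEC. Ms4a1, encoding CD20, differed from MEC by 0.68 in P4 (SE 0.21, adjusted p = 0.14, limma) and by 0.05 in P5. Its second probe gave 0.13 and -0.48. The raw Cy5 signal of the probe used ran the other way, at 435.6 to 487 on the sorted arrays against 622 in WT MEC and 498.9 in het MEC.

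**Figure D3:**
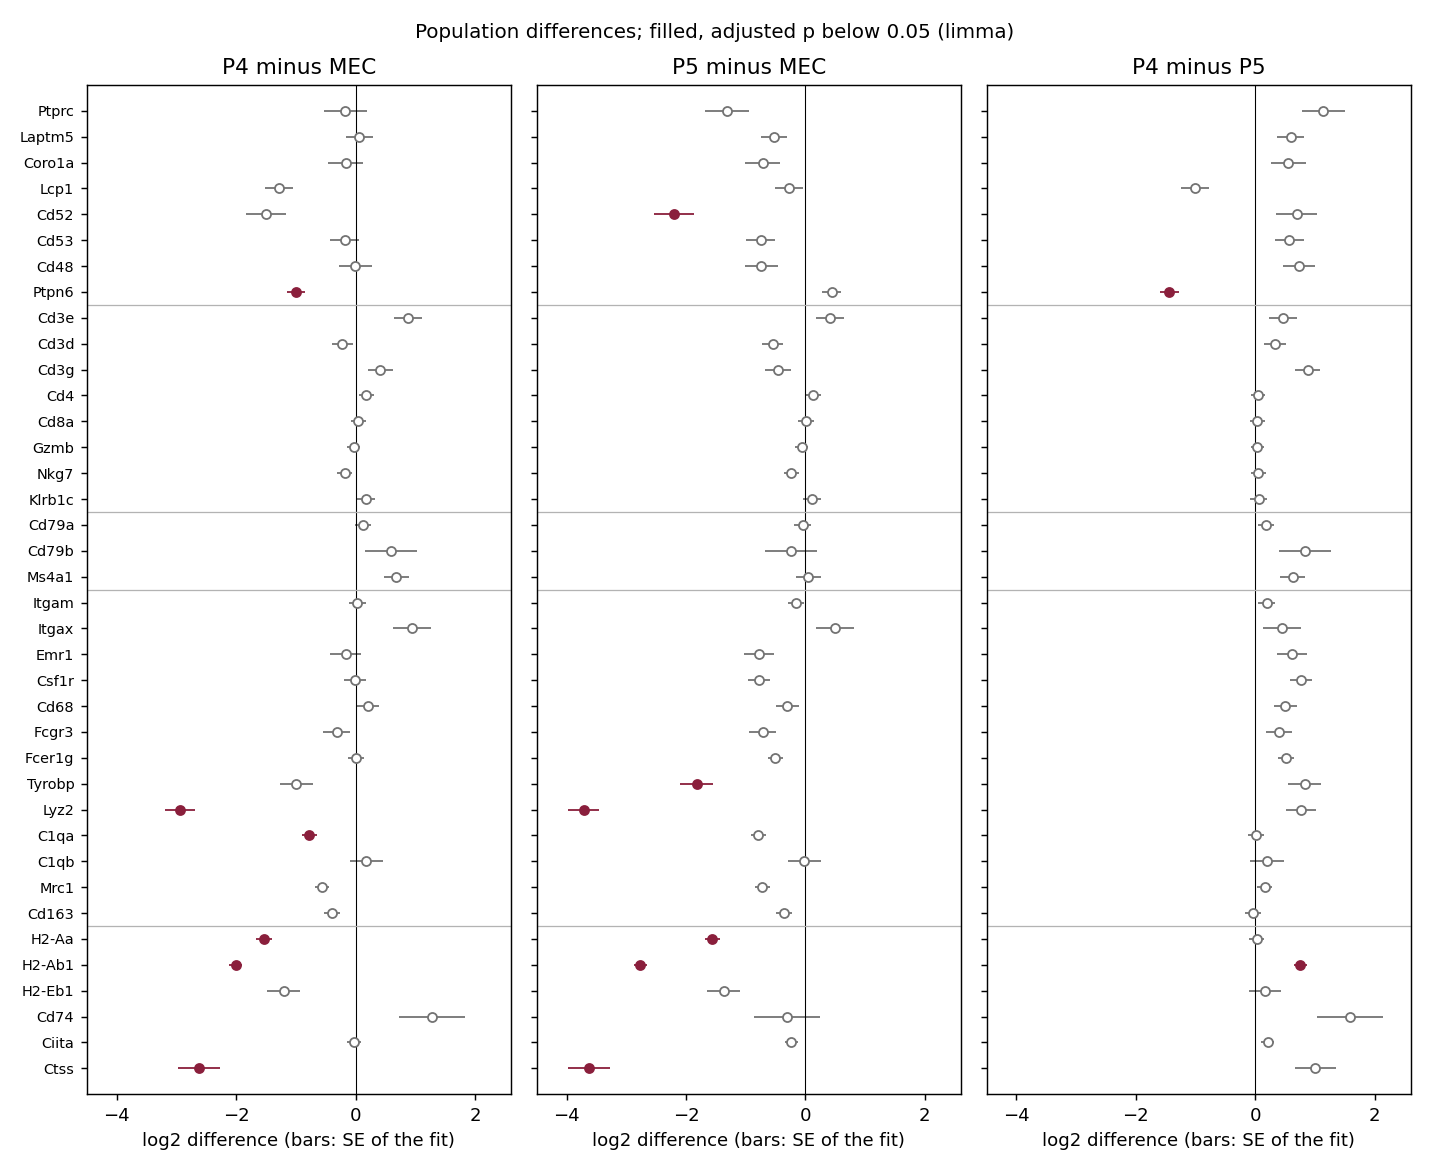
Differences in log2 ratio between populations for the 38 genes, with the SE of the additive fit as bars; filled points passed adjusted p below 0.05 (limma). In both comparisons with MEC every filled point lies below 0, led by Lyz2 (-2.95 and -3.72) and Ctss (-2.62 and -3.63); P4 minus P5 has Ptpn6 (-1.44) and H2-Ab1 (0.76) filled and most open points above 0.

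Markers of other non-epithelial cells moved along with these differences. Of all genes, 4.22% were called lower in P4 than in MEC and 3.11% in P5. Of 8 fibroblast genes 5 were lower in P4 than in MEC and 7 in P5 (limma), with medians of -3.18 and -4.05, and their summed Cy5 signal was 8642 to 15788 on the sorted arrays against 547385 in WT MEC and 190028 in het MEC. Of 8 endothelial genes 6 were lower in each comparison, with summed signals of 1834 to 2407 against 35756 and 24202. Of 7 adipocyte genes 2 were lower in each, with 6852 to 16014 against 288572 and 189924. Of 4 erythroid genes on the array 0 passed in either, with 620 to 1018 against 1186 and 1228. All fibroblast and adipocyte markers were above background on all 6 arrays, and the part of other cell types in the leukocyte genes' differences was not tested.

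Between the sorted populations, most members were higher in P4 than in P5, but few passed the test. In P4, H2-Ab1 rose and Ptpn6 fell, so 2 of 38 members were called where 10.6% of all genes were, 5.04% as higher and 5.56% as lower. The median difference was 0.48 over the 36 members measured in sorted cells, against 0.04 for all genes, and 34 of 36 were positive, the exceptions being Ptpn6 and Lcp1. It was 0.26 without WT P5 (31 of 36 positive) and 0.17 with Cy5 alone, and 26 of 36 were positive without het P4. Fibroblast markers went the same way, 8 of 8 being higher in P4 with 2 called and a median of 1.11, and their part in the members' differences was not tested. H2-Ab1 was 1.69-fold higher in P4 (0.76, SE 0.11, adjusted p = 0.027, limma), but its 3 other probes gave 0.18, 0.09 and -0.04. Ptpn6 was 2.71-fold lower in P4 (-1.44, SE 0.15, adjusted p = 0.015), and its other 2 probes gave 0.31 and 0.01. With the probes of a gene averaged, neither gene was called. A set of 3 was called with outlier local backgrounds replaced, Lcp1 being added, where 15% of all genes were, 7.57% as higher and 7.47% as lower. Dropping a sorted array, whichever of the 4, gave 0 members and 0% of all genes, and median centring in place of loess 0 members and 3.6% of all genes.

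The next largest differences between P4 and P5 were those of Cd74 (1.59, SE 0.55), Ptprc (1.14, SE 0.36), Lcp1 (-1.01, SE 0.24) and Ctss (means of -4.09 and -5.09, SE of the difference 0.34), with adjusted p of 0.16, 0.13, 0.071 and 0.16 (limma). Leaving out 1 array moved Cd74 between 0.79 (without het P4) and 2.38 (without WT P4) and Ptprc between 0.57 (without WT P5) and 1.71 (without het P5), and with Cy5 alone Ptprc was at 0.07. For Ptprc, Ctss and Lyz2 both P4 arrays lay above both P5 arrays, while the raw Cy5 signals of Ptprc spanned only 63.6 to 74.3 over the 4 arrays. Lcp1 went the other way on both of its probes (-1.01 and -0.53). When only the 4 sorted arrays were fitted, 13 members were called, 11 higher in P4 and 2 lower (Ptpn6 and Lcp1), where 18.7% of all genes were called. The 11 were H2-Ab1, Cd74, Ctss, Ptprc, Cd52, Cd3g, Cd79b, Ms4a1, Csf1r, Tyrobp and Lyz2. Leaving out either MEC array gave this same fit, as the other MEC array then sets only its own population term. The fit has fewer residual degrees of freedom than that of all 6 arrays. The 6 class II genes all had positive differences, the smallest being H2-Aa at 0.03.

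Genes of related pathways went partly their own way. Class I molecules present peptides from inside the cell and are not particular to leukocytes. Of 12 class I pathway genes on the array, 3 were lower in P4 than in P5 and 0 higher (limma), where 5.56% and 5.04% of all genes were. The median was -0.92. The 3 were the light chain B2m (-0.92, adjusted p = 0.030) and the immunoproteasome subunits Psmb8 (-2.24, adjusted p = 0.020) and Psmb9 (-1.96, adjusted p = 0.027). Against MEC these and Psmb10 were lower in P4, 4 of 12, where 4.22% of all genes were. In P5 0 of 12 were called, where 4.06% of all genes were, and 0 passed at an unadjusted p below 0.05. Psmb8 read -1.54 and -1.35 in WT and het P4, 0.92 and 0.66 in P5 and 0.61 and 1.43 in MEC, so P5 and MEC overlapped and P4 lay apart. For H2-Aa the ratios of P4 and P5 lay together, but its probe was dim in both, which left them little room to move apart.

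Of 14 further genes of the class II pathway, 2 were called between P4 and P5, where 10.6% of all genes were. The lysosomal protease Ctsl was higher in P4 (2.04, SE 0.12, adjusted p = 0.0072, limma) and H2-DMb1, a chain of the peptide-loading chaperone, lower (-0.94, SE 0.11, adjusted p = 0.018). Against MEC the same genes were called in P4 (0.95 and -1.26), and Ctsl alone in P5 (-1.09), where 7.01% and 4.06% of all genes were. Ctsl thus ran opposite to Ctss in P4 against MEC. Of 25 haematopoietic signalling genes and regulators, Lyn (-2.07) and Plcg2 (-1.91) were lower in P4 than in P5, Lyn (-2.24) and Irf8 (-1.78) lower in P4 than in MEC, and Irf8 (-2.06) and Syk (-0.88) lower in P5 than in MEC. In the same order, 5.56%, 4.22% and 3.11% of all genes were called as lower. Irf8, a regulator of myeloid development, read -0.27 to -0.81 in the sorted samples and 1.40 and 1.48 in MEC. Lyn, a kinase downstream of Fc and B cell receptors, read 1.63 and 1.93 in P5 and 1.90 and 1.98 in MEC against -0.38 and -0.21 in P4.

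Genotype was compared over the populations first. With the 3 populations averaged, 0 of 38 members differed between het and WT at adjusted p below 0.05 (limma), where 0% of all genes were called; 6 members and 5187 of the 24836 genes had an unadjusted p below 0.05, and the smallest adjusted p was 0.21. The largest differences were those of Cd74 (1.02, SE 0.45), Itgax (0.93, SE 0.26), H2-Eb1 (0.93, SE 0.22), Cd3e (0.75, SE 0.19) and Tyrobp (-0.56, SE 0.23). The median over the 36 was 0.03 against 0.07 for all genes, and -0.56 against -0.21 with median centring. Fitted on the 4 sorted arrays alone, Cd74 (1.63, adjusted p = 0.040), Itgax (1.25, adjusted p = 0.042) and H2-Eb1 (1.22, adjusted p = 0.028) were higher in het (limma). These were 3 of 38 members, where 3.28% of all genes were called. Leaving out either MEC array gave this same fit and is no further check.

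Within a population, 1 het array is set against 1 WT array without a test, and members at least 2-fold apart are counted among those above background on both. In P4, 5 of 34 members were at least 2-fold higher in het and 0 lower, where 6.96% of all genes were at least 2-fold apart, 6.88% as higher and 0.0852% as lower. They were the invariant chain Cd74 (2.08), the dendritic cell integrin Itgax (1.56), the class II chain H2-Eb1 (1.37), Cd3e (1.19) and the complement gene C1qb (1.13). C1qb read 0.22 in WT P4, 1.36 in het P4, 0.36 and 0.83 in WT and het P5 and 0.59 and 0.64 in MEC. Itgax read 0.47 and 2.03 in WT and het P4, 0.33 and 1.28 in P5 and 0.16 and 0.46 in MEC. In each of these genes het P4 was the highest of the sorted arrays, a ranking favoured by their choice for a high het P4 value. Markers of other cell types were higher in het P4 as well: 3 of 7 endothelial genes above background passed 2-fold (log2 median 0.9993), 2 of 8 fibroblast genes (0.64) and 1 of 7 adipocyte genes (0.21). Once outlier local backgrounds were replaced 0 endothelial and 0 fibroblast genes did, and their part in the members' differences was not tested.

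These differences depended on the processing and on the probe. With outlier local backgrounds replaced, 3 of the 34 remained at least 2-fold apart, Cd74 (1.86), Itgax (1.33) and Cd3e (1.01), where 4.67% of all genes were, 4.11% as higher and 0.559% as lower. With median centring 0 members were higher and 16 lower, where 1.7% of all genes were at least 2-fold higher and 40.3% lower, and the median of all genes moved from 0.11 to -0.37. The second probes of Itgax and Cd3e gave -0.51 and -0.33 in P4. Cd74 and H2-Eb1 have 1 probe each, and their raw Cy5 signals were 1573 (WT) and 3426 (het) for Cd74 and 221 and 348 for H2-Eb1, against 961 and 1205 and 224 and 281 in P5.

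In P5, Cd74 (1.17) and H2-Eb1 (1.07) were at least 2-fold higher in het, 2 of 35 members where 3.33% of all genes were at least 2-fold apart, 2.73% as higher and 0.6% as lower. Itgax (0.94), Cd79b (0.79) and Cd3e (0.74) followed. With outlier local backgrounds replaced Cd74 alone remained (1.16), where 3.42% of all genes were past 2-fold, 2.44% as higher and 0.974% as lower, and H2-Eb1 stood at 0.98. The members' median was 0.20 against 0.08 for all genes, and -0.22 against -0.20 with median centring. In P5 3 of 8 fibroblast genes and 1 of 7 adipocyte genes were at least 2-fold higher in het, and 0 of 8 endothelial genes. H2-Aa and H2-Ab1, the class II chains that set MEC apart, differed by 0.16 and 0.32 in P5 and by 0.07 and 0.23 in P4, while Ciita differed by -0.03 and 0.12.

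In MEC the members past 2-fold were all lower in het. Ctss (-1.15), Tyrobp (-1.07) and Ptprc (-1.04) were at least 2-fold lower in het, 3 of 38 members, and 0 were higher, where 2.79% of all genes were at least 2-fold apart, 0.711% as lower and 2.08% as higher. Cd52 (-0.99) and Cd79b (-0.90) followed, whereas H2-Aa, H2-Ab1 and H2-Eb1 differed by 0.37, 0.34 and 0.33 the other way. With outlier local backgrounds replaced the 3 were Ctss (-1.18), Tyrobp (-1.06) and Cd52 (-1.04), where 2.3% of all genes were past 2-fold, 1.08% as lower and 1.22% as higher. Under that setting Ptprc stood at -0.74, H2-Aa at -0.53 and H2-Eb1 at -0.34, and 29 of 38 members were negative. The fibroblast markers' summed Cy5 signal was lower in het MEC as well (190028 against 547385), with 7 of 8 genes negative and a median of -0.79, while all 8 endothelial genes were positive (median 0.65). Replacing outlier local backgrounds gave medians of -0.88 for fibroblast genes, 8 of 8 negative, and -0.04 for endothelial genes, 4 of 8 negative, and their part in the leukocyte genes' differences was not tested.

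**Figure D4:**
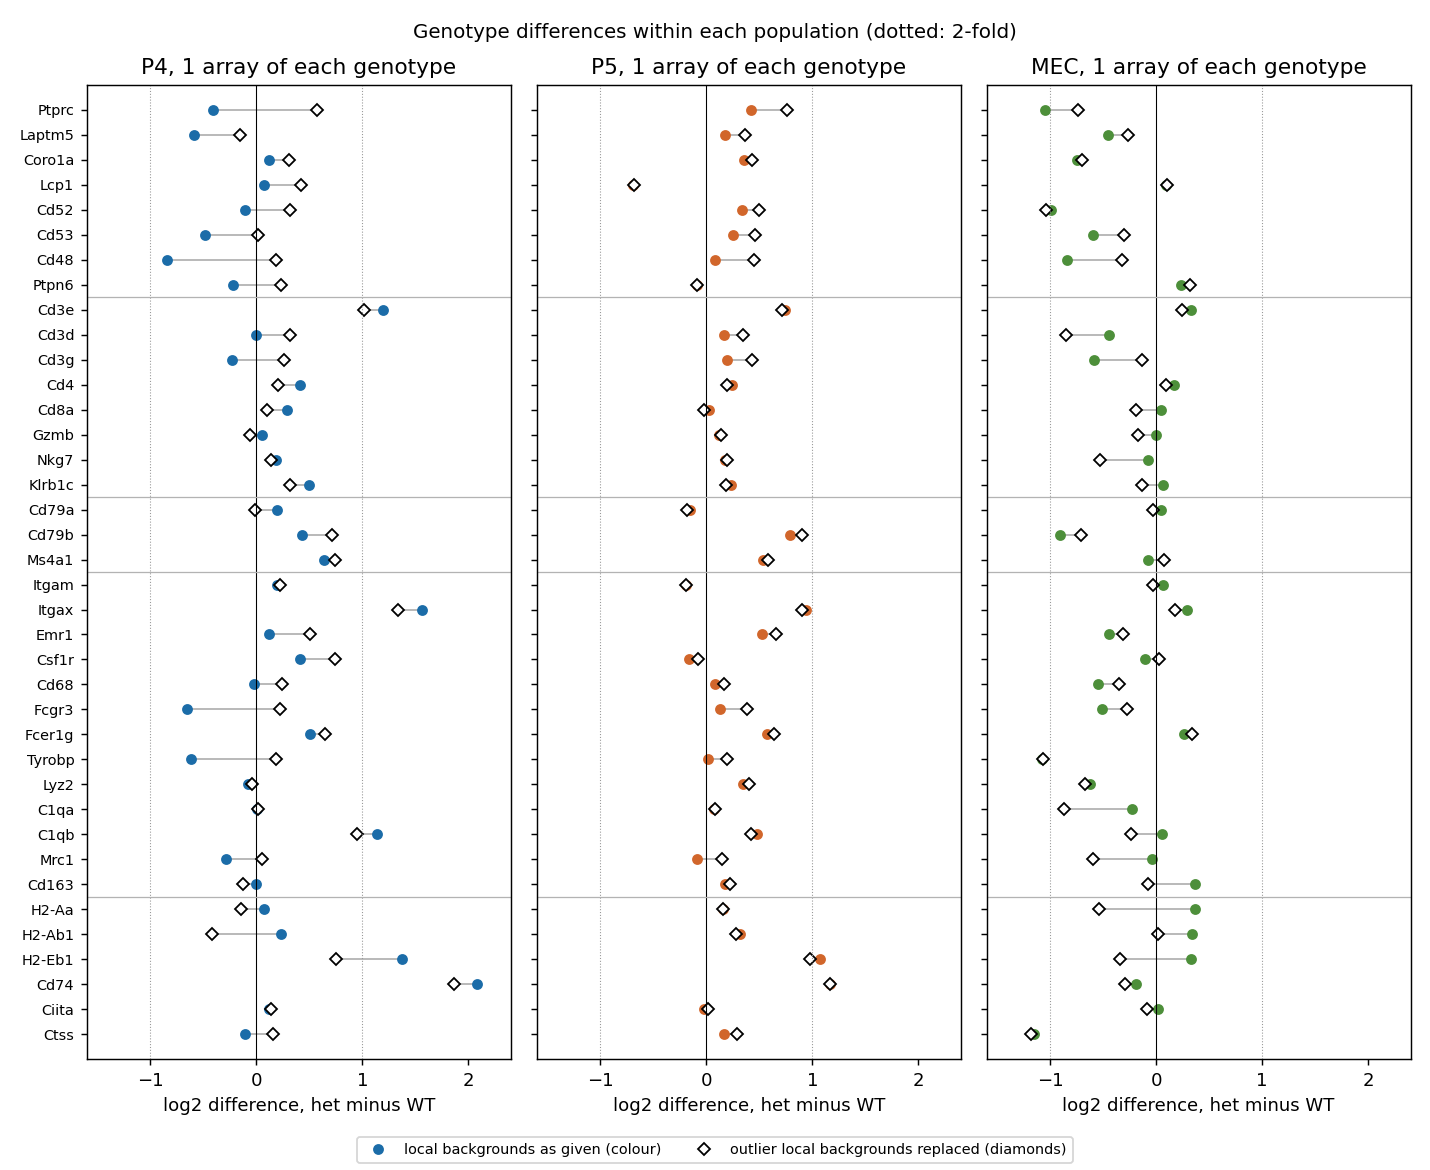
Differences in log2 ratio between the het and WT array of each population for the 38 genes, with local backgrounds as given (coloured points) and with outlier local backgrounds replaced (diamonds); dotted lines mark 2-fold. Cd74 lies beyond 2-fold in P4 (2.08 and 1.86) and P5 (1.17 and 1.16) under both settings, Ctss and Tyrobp do so on the low side in MEC, and Ptprc crosses 0 between the settings in P4 (-0.41 and 0.57).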

How the data were processed

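Each array carried sample RNA in Cy5 and a common reference RNA in Cy3, with no dye swap. The file headers name Agilent Feature Extraction 9.5.3.1 as the software behind the authors' scans, and the deposited files give each spot's mean signal and median local background as intensity, not normalized, with the software's own log10 ratio. The deposited series table holds log2 ratios in the direction sample over reference, judged from its correlation with the scanner ratios (0.988 to 1.000 across probes; column medians -0.04 to 0.10). How the authors filtered it is not given in the sources used here.

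In R 4.3.3 with limma 3.58.1, intensities were corrected by normexp (offset 50) and loess, and spots of a probe were averaged. Flagged spots, 74 to 236 per array, were left out, none of them on the probe used for a member. Of 41174 probes, 22951 were named by RefSeq accession, 3109 by synonym and 6659 by current symbol, and 8455 kept the array's name. Genes whose sample signal passed the software's background test on at least 2 arrays were fitted (lmFit, eBayes; population + genotype; 2 residual degrees of freedom; Benjamini-Hochberg over all 24836 genes, called below 0.05). The fit was tested on simulated data. P-values measure only the spread between these arrays, whose number limits the precision. Technical error came from 245 probes printed 10 times (pooled SD 0.10). Slide is absorbed by the population term.

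Alternatives were replaced outlier local backgrounds, offset 0, median centring, the scanner's log ratio, the series table, other filters, the mean over probes, Cy5 alone, and arrays left out. The replaced backgrounds beside each within-population value and the comparison with negative controls were added after seeing the data. Values on 6 arrays are given for called members, the 5 largest differences per comparison and 12 lineage markers. The members and lists were chosen with earlier results of these data known. Promoter positions are of GRCm38.p6; probe positions are not used here.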

Additional observations from a re-analysis of the deposited data

Results flagged for a closer look

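Cd79b, a signalling chain of the B cell receptor, moved in opposite directions between genotypes in 2 populations, by more than 0.5 (log2) under both background settings. The het minus WT difference was 0.79 in P5 and -0.90 in MEC, each from 1 array against 1. The difference between the populations was not tested.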

How the results depend on the processing

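With 1 array per group, every call from all 6 arrays rests on 2 residual degrees of freedom, and calls from fewer arrays rest on fewer. Dim members are limited by their distance from background. The share of all genes called under the same setting stands in brackets. Members called in P4 against P5 (2) became 6 with offset 0 (12.6%), 0 with median centring (3.6%), 1 with the mean over probes (9.03%), 4 with Cy5 alone (15.4%) and 13 on the 4 sorted arrays (18.7%). In P4 against MEC the 6 became 10 with outlier local backgrounds replaced (18.1%), 10 with offset 0 (8.1%), 14 with median centring (28.4%), 13 with the scanner's log ratio (17.6%), 13 with the series table (17.6%) and 17 with Cy5 alone (20.1%), of which 15 were lower. In P5 against MEC the 6 became 10 with offset 0 (6.63%), 23 with median centring (33.3%) and 10 with Cy5 alone (6.98%). Mrc1 was among the P4 calls with outlier local backgrounds replaced, the scanner's ratio and the series table, and Mrc1 and Cd163 with Cy5 alone. Among the P5 calls were Mrc1 with offset 0 and Cd163 with Cy5 alone. Both genes passed the filter through MEC alone, so these calls are no test against MEC. For genotype over populations the 0 became 15 with median centring, 14 of them lower (31.4%), and 3 on the 4 sorted arrays (3.28%). Leaving out 1 array gave 0 to 13 for P4 against P5, 0 to 12 for P4 against MEC, 0 to 11 for P5 against MEC and 0 to 3 for genotype. Within P4 the 5 members at least 2-fold apart became 3 with outlier backgrounds replaced (4.67%), 9 with offset 0, 4 of them lower (11.7%), 16 with median centring, all lower (42%), 2 with the scanner's ratio (6.99%), 2 with the series table (6.99%), 3 with the mean over probes (5.53%) and 1 with Cy5 alone (3.44%). Within P5 the 2 became 1 with outlier backgrounds replaced (3.42%), 1, lower, with median centring (10%) and 1 with Cy5 alone (2.31%). Within MEC the 3 became 7 with offset 0, 6 of them lower (7.5%), 7 with median centring (7.92%), 6 with the scanner's ratio (5.02%) and 6 with the series table (5.02%). Values that changed sign under median centring included Fcer1g in P4 against MEC (-1.18) and Cd3e in P4 (-0.18) and P5 (-0.53) against MEC. They also included Emr1 (-0.80) and Csf1r (-0.66) for genotype, and Cd3e within P4 (-0.24). Median centring moved the median of all genes to -0.23 and -0.35 in P4 and P5 against MEC and to -0.21 for genotype. The cause of these changes was not tested. Lyz2, Ctss, H2-Aa and H2-Ab1 were called lower against MEC under all 9 alternatives that kept the 6 arrays, in both comparisons. No paired analysis was possible because the labels give no replicate numbers and each group is 1 array.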
